A study of Mus musculus with 14 samples.

Results

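Metalloproteases of the MMP, ADAM and ADAMTS families and their tissue inhibitors, the TIMPs, were followed through T cell therapy of B16F10 tumours. Every gene was included whose name on the array is Mmp, Adam, Adamts or Timp followed by a digit, which gave 71 of the 28478 genes on the array, read by 122 probes. These are 21 Mmp, 28 Adam, 18 Adamts and 4 Timp genes. The tumours came from the B16F10 line, a melanoma of C57BL/6 mice, and 1000000 cells had been injected into C57BL/6 mice 9 days before the start of treatment. In the first arm, mice received 10000000 cultured and activated cytotoxic T lymphocytes (CTLs; CD90.1+ cells that recognise the melanocyte protein gp100) on day 0 and an antibody against interferon gamma (anti-IFNg) into the peritoneum on days 0 and 2. In the second arm the same CTLs were given with control rat IgG on the same days, in the third arm the CTLs were given alone, and the fourth arm was left untreated. CTL and untreated arms had 4 arrays each, from days 1, 3, 5 and 7, each with the pooled RNA of 4 tumours. The anti-IFNg and IgG arms had 3 arrays each, from days 3, 5 and 7, each with the pooled RNA of 3 tumours.

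MMPs are zinc-dependent enzymes that cut collagens, elastin and other matrix proteins, and most are secreted or membrane-bound as inactive precursors. ADAMs are membrane proteins, many of which release the outer part of cytokines, receptors and adhesion molecules from the cell surface, a step called shedding. ADAMTS enzymes are secreted, and several of them cut the proteoglycans versican and aggrecan, while TIMPs bind the active site of these enzymes and block it.

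Each array was read as 43379 non-control spots, of which 48.9% (CTL, day 5) to 59.7% (untreated, day 7) were well above background, and no spot was saturated. Each of the 12 arrays of days 3, 5 and 7 had all 7 melanocyte marker genes well above background, with summed levels of 1444 to 1658 with anti-IFNg, 1516 to 1553 with IgG, 1480 to 1724 with CTLs and 1297 to 1826 in untreated tumours (in multiples of the array's 75th percentile), and none of the 7 passed the test in any of the 6 comparisons. A gene's level is given below as the log2 of the processed spot signal minus that of the array's 75th percentile, so that 0 is the 75th percentile. Levels of different genes are not set against each other, because each is read by its own probe. Tests used limma on the 12 arrays of days 3, 5 and 7 with arm and day as terms, and p-values were adjusted over all 17021 genes that were well above background on at least 3 arrays. No combination of arm and day was replicated, so errors and p-values measure how far same-day differences of pooled tumours varied from day to day, not the spread between mice. In pooled tumour RNA, fewer cells of a type and less RNA per cell cannot be told apart.

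Of the 71 genes, 42 passed the filter on dim probes: 13 of 21 Mmp, 15 of 28 Adam, 10 of 18 Adamts and all 4 Timp genes. The probe was well above background on all 14 arrays for 18 genes, among them Mmp11, Mmp14, Mmp17, Adam8, Adam9, Adam15, Adam17, Adam23, Adamts1, Adamts4, Adamts5 and Timp1 to Timp3. It was well above background on no array for 20 genes, among them Mmp7, Mmp19, Adamts13 and, on both of its probes, Mmp9, the gelatinase B of neutrophils and macrophages. These 20 probes at the dim end still differed between arms on the scaled axis, with a median difference of 0.60 for CTL minus untreated and of -0.42 for anti-IFNg minus IgG.

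The first comparison asked which of these genes differed between CTL-treated and untreated tumours from day 3 on. A small group of secreted MMPs and one ADAM rose, namely the collagenases Mmp8 and Mmp13, the macrophage elastase Mmp12 and the myeloid sheddase Adam8. A larger group fell, namely Mmp15, Adam12, Adamts20, Adam23, Mmp2, Adam9, Mmp17 and Adam11. Thus 12 of the 42 tested genes passed (4 higher, 8 lower), or 28.6%, beside 31.5% of all 17021 genes (10.1% higher, 21.4% lower), and the share was near that of the whole array. The median difference was -0.03 over the 42 genes and -0.10 over all genes. In all 12 the 3 CTL arrays and the 3 untreated arrays did not overlap. Over the 42 genes the arms did not overlap in 7 genes that were higher and 8 that were lower, beside 12.3% and 28.5% of all genes.

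**Figure D1:**
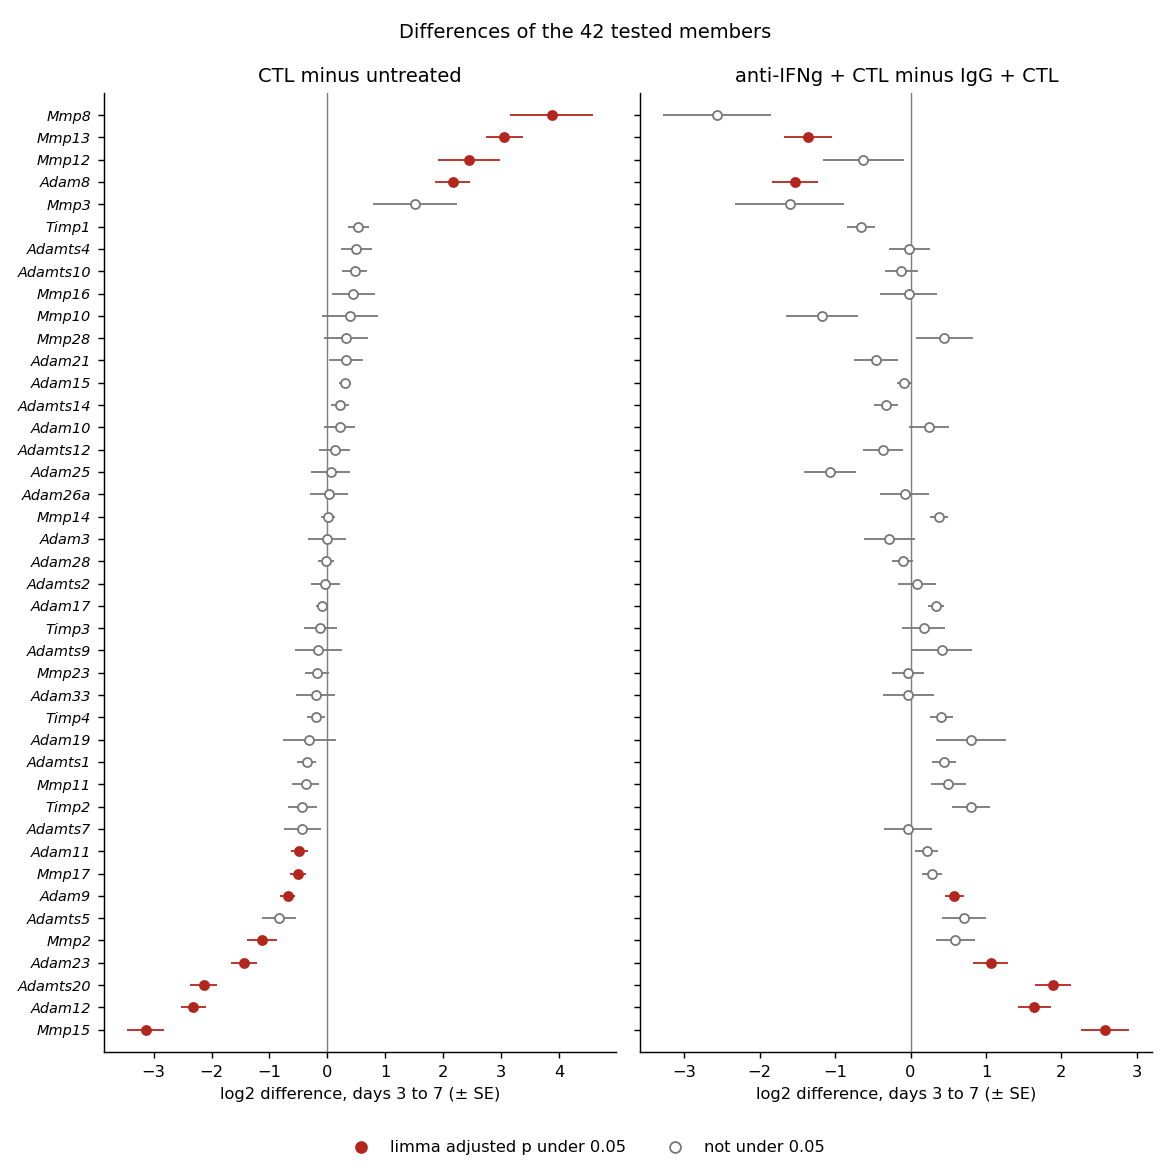
Differences in log2 level (points) with standard errors (bars) of the 42 tested genes over days 3, 5 and 7, for CTL minus untreated on the left and anti-IFNg with CTL minus IgG with CTL on the right, with genes ordered by the left panel. Filled red points passed the limma test, 12 on the left and 7 on the right; Mmp8 is at 3.87 and -2.56, and Mmp15 at -3.14 and 2.58.

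Mmp13, collagenase 3, which cuts fibrillar collagens and is the main interstitial collagenase of rodents, had levels of -4.07, -1.66, -1.02 and -1.10 in CTL tumours of days 1, 3, 5 and 7, against -5.38, -4.48, -3.98 and -4.47 in untreated tumours. With anti-IFNg it had -2.76, -3.39 and -3.39 on days 3, 5 and 7, against -1.81, -1.13 and -2.54 with IgG. All CTL and IgG arrays of days 3 to 7 were thus above all untreated and all anti-IFNg arrays, and 3 of the 4 untreated arrays were not well above background. The rise in CTL over untreated tumours was 3.05 ± 0.32 (SE, n = 3 days), or 8.31-fold (limma, adjusted p = 0.00062). With most untreated arrays dim, this fold is a fitted value, and over 13 alternative settings the rise lay between 1.75 and 3.17. Its probe lies on chromosome 9 at 7282762 to 7282821 in build mm8.

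Mmp8, collagenase 2, which neutrophils store in granules, had levels of -6.16, -3.89, -1.10 and -1.20 in CTL tumours of days 1, 3, 5 and 7, against -6.29, -6.71, -5.21 and -5.88 in untreated tumours. With anti-IFNg the levels were -4.30, -4.56 and -6.24, against -3.76, -1.44 and -2.22 with IgG. No untreated and no anti-IFNg array was well above background for this gene, while all 3 CTL and all 3 IgG arrays of days 3 to 7 were. The fitted rise in CTL tumours was 3.87 ± 0.71 (limma, adjusted p = 0.00664), which as a bound is at least 5.02-fold. The Mmp8 probe lies on chromosome 9 at 7568238 to 7568297 (mm8). Bounds of this kind set the mean of the bright arm against the higher of the dim probe's own signal and the lowest signal well above background on each array.

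Mmp12, the macrophage elastase, had levels of -5.11, -3.96, -2.20 and -1.44 in CTL tumours of days 1, 3, 5 and 7, against -4.91, -5.04, -4.95 and -4.95 in untreated tumours. With anti-IFNg it had -3.70, -2.96 and -4.07, against -3.27, -2.04 and -3.53 with IgG. Every array of days 3 to 7 from mice given CTLs was above every untreated array, none of which was well above background, and the anti-IFNg and IgG arrays overlapped. The rise in CTL tumours was 2.44 ± 0.54, at least 3.63-fold (limma, adjusted p = 0.0125). Its probe spans 7354810 to 7355325 on chromosome 9.

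Adam8, a sheddase of myeloid cells that cuts adhesion molecules, had levels of 1.07, 2.90, 3.86 and 3.31 in CTL tumours of days 1, 3, 5 and 7, against 0.96, 1.35, 1.08 and 1.17 in untreated tumours. In anti-IFNg tumours it stood at 2.04, 1.44 and 1.19, against 2.77, 3.65 and 2.85 with IgG. It was well above background on all 14 arrays, and the CTL and IgG arrays of days 3 to 7 lay above all others. The rise in CTL tumours was 2.16 ± 0.30, or 4.46-fold (limma, adjusted p = 0.00227). The Adam8 probe lies on chromosome 7 at 139830349 to 139830408. The rises of Adam8 and Mmp13 were the ones of these 4 that passed under every one of 13 alternative settings, whereas that of Mmp8 was lost without day 5 and that of Mmp12 without day 5, without the other arms in the fit, and with day 1 added.

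**Figure D2:**
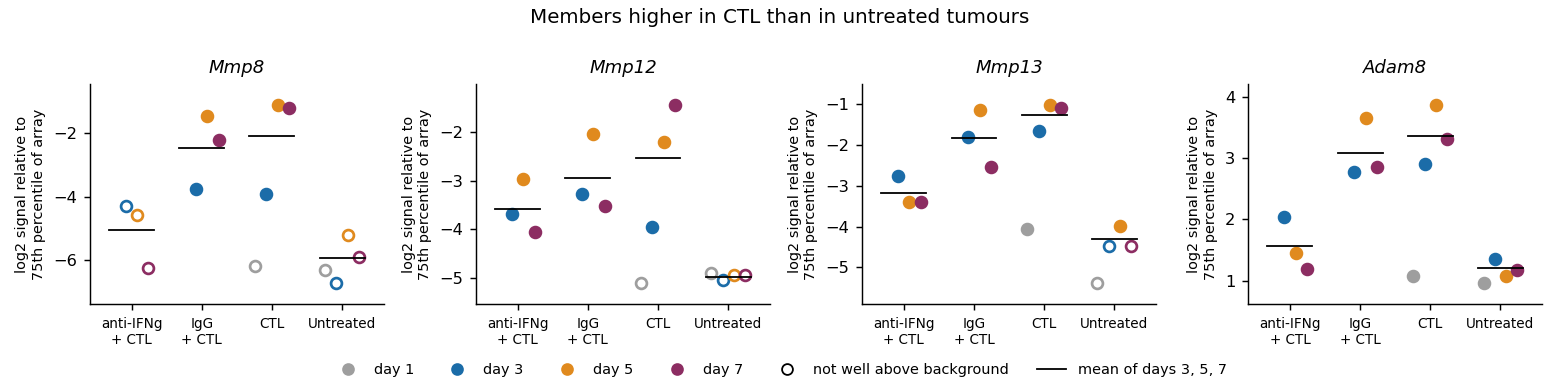
Log2 level of Mmp8, Mmp12, Mmp13 and Adam8 on each array (points, coloured by day), with anti-IFNg with CTL, IgG with CTL, CTL and untreated tumours from left to right; open points were not well above background and the lines are means of days 3, 5 and 7. Adam8 means were 1.56 with anti-IFNg, 3.09 with IgG, 3.36 with CTL and 1.20 in untreated tumours.

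Mmp8, Mmp12 and Mmp13 belong to a row of 8 Mmp genes on chromosome 9, whose probes span 7282762 to 7697370 in mm8. Of the other members, Mmp3 and Mmp10 were tested, while Mmp1a, Mmp7 and Mmp20 were too dim to test. Mmp3, stromelysin 1, which cuts proteoglycans and activates other MMPs, had levels of -2.22, -1.97, -0.56 and -1.56 in CTL tumours of days 1, 3, 5 and 7, against -3.17, -3.29, -3.43 and -1.89 in untreated tumours. With the antibody to IFNg its levels were -3.54, -3.53 and -3.57, against -4.25, -0.94 and -0.64 with IgG. The day 7 untreated array stood above the other untreated arrays and the day 3 IgG array below the other IgG arrays, so both pairs of arms overlapped and neither difference passed (1.51 ± 0.72, limma, adjusted p = 0.144 for CTL minus untreated; -1.60 ± 0.72, adjusted p = 0.184 for anti-IFNg minus IgG). Mmp10, stromelysin 2, had 0.39 ± 0.48 for CTL minus untreated with all CTL arrays of days 3 to 7 not well above background (limma, adjusted p = 0.558).

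Windows of 300 bases around the RefSeq start of these genes (250 before, 50 after; GRCm38.p6) are shown for the 3 neighbours that rose, for Mmp3, whose difference did not pass, and for Mmp15, which fell. RefSeq gave a window for 41 of the 71 genes. The letters of the AP-1 element (TGANTCA, which reads as the same pattern on both strands), through which collagenase and stromelysin genes are known to respond to growth factors and cytokines, are in capitals. In Mmp13 the capitals nearer the left end match, on the opposite strand, the letters of the interferon-stimulated response element, GAAA and again GAAA with any 2 letters between them.
Mmp13, chr9:7272264-7272563, plus strand: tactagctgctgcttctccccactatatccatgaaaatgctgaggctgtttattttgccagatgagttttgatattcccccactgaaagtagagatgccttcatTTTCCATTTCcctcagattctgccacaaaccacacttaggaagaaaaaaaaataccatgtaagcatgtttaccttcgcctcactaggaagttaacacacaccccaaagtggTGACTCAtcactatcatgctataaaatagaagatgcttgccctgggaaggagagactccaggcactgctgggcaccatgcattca
Mmp12, chr9:7347124-7347423, plus strand: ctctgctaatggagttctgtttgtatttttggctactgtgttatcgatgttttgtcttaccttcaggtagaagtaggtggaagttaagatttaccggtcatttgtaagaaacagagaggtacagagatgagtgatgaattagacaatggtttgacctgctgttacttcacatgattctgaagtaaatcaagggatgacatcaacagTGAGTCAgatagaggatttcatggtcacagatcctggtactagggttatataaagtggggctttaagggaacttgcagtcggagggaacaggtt
Mmp8, chr9:7558179-7558478, plus strand: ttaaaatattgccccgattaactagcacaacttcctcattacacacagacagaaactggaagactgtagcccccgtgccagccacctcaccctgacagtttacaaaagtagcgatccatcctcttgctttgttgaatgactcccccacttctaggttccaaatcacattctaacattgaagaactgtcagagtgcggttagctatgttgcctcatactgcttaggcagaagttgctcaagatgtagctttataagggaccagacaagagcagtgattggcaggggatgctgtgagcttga
Mmp3, chr9:7445572-7445871, plus strand: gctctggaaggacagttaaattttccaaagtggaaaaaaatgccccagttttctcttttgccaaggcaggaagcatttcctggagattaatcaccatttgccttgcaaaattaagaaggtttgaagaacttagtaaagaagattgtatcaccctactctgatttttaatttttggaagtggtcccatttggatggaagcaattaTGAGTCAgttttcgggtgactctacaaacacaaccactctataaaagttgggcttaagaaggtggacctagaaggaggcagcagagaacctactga
Mmp15, chr8:95352046-95352345, plus strand: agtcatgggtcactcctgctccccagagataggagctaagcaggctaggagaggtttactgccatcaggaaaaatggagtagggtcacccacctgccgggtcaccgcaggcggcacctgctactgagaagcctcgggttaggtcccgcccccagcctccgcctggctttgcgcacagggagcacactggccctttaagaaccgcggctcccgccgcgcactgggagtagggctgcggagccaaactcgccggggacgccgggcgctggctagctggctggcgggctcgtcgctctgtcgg
TGANTCA was found in 11 of the 41 genes with a window, beside 7.81% of 32851 windows over all genes, and 7 of the 8 genes in the row on chromosome 9 held it (Mmp13, Mmp12, Mmp3, Mmp1a, Mmp10, Mmp20 and Mmp7, not Mmp8). It started 35 bases before the start in Mmp13, 44 in the Mmp12 window shown and 46 in Mmp3. Mmp12 has 2 RefSeq windows, of which the other held no match. The 41 genes were counted by gene, if any of their windows matched, while the shares over all genes count windows, so the units differ. The letters of an interferon gamma-activated site, TTCNNNGAA, were found in 2 of the 41 genes (Adam21 and Mmp23), beside 8.30% of all windows, and those of the interferon-stimulated response element, searched on both strands, in Mmp13 alone of the 41, beside 3.44% of all windows. The windows of Mmp8, which rose, and Mmp15, which fell, held none of these 3 patterns. The Mmp15 window was 66.0% G and C, and those of Mmp13, Mmp12, Mmp8 and Mmp3 were 43.7%, 40.7%, 46.0% and 40.0%.

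Among the genes that fell, Mmp15 (MT2-MMP, a membrane-anchored MMP) had levels of -3.03, -5.79, -5.35 and -5.97 in CTL tumours of days 1, 3, 5 and 7, against -3.28, -2.23, -2.54 and -2.93 in untreated tumours. With anti-IFNg it had -3.46, -3.05 and -2.94, against -6.13, -5.99 and -5.06 with IgG. The CTL and IgG arrays of days 3 to 7 were not well above background, and all other arrays were. The fitted difference in CTL tumours was -3.14 ± 0.32, at least 2.35-fold lower (limma, adjusted p = 0.000573). In mean spot signal before any correction, CTL tumours of days 3, 5 and 7 had 78.2, 82.3 and 70.3 units against 174, 156 and 104 in untreated tumours, over a local background of 48.5 to 59.0 units. The probe lies on chromosome 8 at 98262932 to 98262991.

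Adam12 (meltrin alpha, which releases HB-EGF and cuts insulin-like growth factor binding proteins) had levels of -2.54, -4.17, -4.90 and -4.48 in CTL tumours of days 1, 3, 5 and 7, against -2.53, -1.98, -2.02 and -2.62 in untreated tumours. Under anti-IFNg its levels were -2.54, -2.57 and -2.25, against -4.0, -4.27 and -4.01 with IgG. It too was not well above background in any CTL or IgG array of days 3 to 7 and was in all others. The fall in CTL tumours was -2.31 ± 0.21, at least 3.02-fold (limma, adjusted p = 0.000371), and a second probe of the gene differed by -2.15. The probe used lies on chromosome 7 at 133722487 to 133722546.

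Adamts20, a secreted protease that cuts versican and is needed for the survival of melanoblasts in mouse skin, had levels of -1.07, -3.08, -3.65 and -2.76 in CTL tumours of days 1, 3, 5 and 7, against -1.03, -1.06, -1.05 and -0.97 in untreated tumours. In anti-IFNg tumours it stood at -1.38, -1.38 and -0.89, against -3.38, -3.68 and -2.27 with IgG. Untreated tumours and the CTL tumour pool of day 1 lay within a range of -1.07 to -0.97, and the CTL and IgG arrays of days 3 to 7 lay at -2.27 or below. The fall in CTL tumours was -2.14 ± 0.23, or 4.40-fold (limma, adjusted p = 0.00076). The probe used lies on chromosome 15 at 94179659 to 94179718 and was not named through RefSeq. The other 2 probes of Adamts20, which were, were never well above background and differed by 0.28 and -0.15. The call was lost when all probes of the gene were averaged.

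Adam23, which lacks protease activity and binds integrins and LGI proteins, had levels of 1.37, 0.41, -0.07 and -0.36 in CTL tumours of days 1, 3, 5 and 7, against 1.39, 1.72, 1.30 and 1.29 in untreated tumours. With anti-IFNg it had 0.79, 0.61 and 0.88, against 0.19, -0.08 and -1.0 with IgG. The anti-IFNg arrays lay between the IgG arrays below and the untreated arrays above, with no overlap on either side. The fall in CTL tumours was -1.44 ± 0.23, or 2.72-fold (limma, adjusted p = 0.00364), and its other 2 probes differed by -1.13 and -1.28. The probe used lies on chromosome 1 at 63527041 to 63527100.

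Adam9, a widely expressed sheddase, had levels of 3.38, 3.19, 2.64 and 2.76 in CTL tumours of days 1, 3, 5 and 7, against 3.42, 3.50, 3.51 and 3.62 in untreated tumours. Anti-IFNg arrays of days 3, 5 and 7 had 3.44, 3.25 and 3.51, against 3.04, 2.61 and 2.80 with IgG. The arms of either pair did not overlap on days 3 to 7, although the change was small, with -0.68 ± 0.13 in CTL tumours, or 1.61-fold (limma, adjusted p = 0.0073). Mmp2, gelatinase A, which cuts the type IV collagen of basement membranes, had -2.32, -3.95, -3.57 and -2.78 in CTL tumours of days 1, 3, 5 and 7, against -2.57, -2.15, -2.52 and -2.24 in untreated tumours. The 3 later CTL arrays lay below all untreated arrays, with the day 7 array closest to them, and the difference was -1.13 ± 0.26 (limma, adjusted p = 0.0146). Mmp2 had -2.69, -2.51 and -2.45 with anti-IFNg, against -3.80, -2.98 and -2.65 with IgG, and these arms overlapped. The probes of Adam9 and Mmp2 lie on chromosome 8 at 26415357 to 26415416 and at 95742069 to 95742128.

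Mmp17 (MT4-MMP, held in the membrane by a lipid anchor) and Adam11, another ADAM without protease activity, fell by smaller amounts. Mmp17 had -1.94, -1.93 and -1.66 in CTL tumours of days 3, 5 and 7, against -1.33, -1.47 and -1.23 in untreated tumours, and differed by -0.50 ± 0.14 (limma, adjusted p = 0.0274), and its second probe, well above background on 4 arrays, by -2.31. Adam11 had -2.97, -2.81 and -2.84 in CTL tumours, against -2.08, -2.74 and -2.34 in untreated tumours, arms that were only just apart. It differed by -0.48 ± 0.15 (limma, adjusted p = 0.0418), and its 3 probes lay between -0.52 and -0.38. Of 13 alternative settings, the call held in 3 for Adam11, 5 for Mmp17 and 7 for Mmp2, and in 10 to 12 for the other genes that fell.

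**Figure D3:**
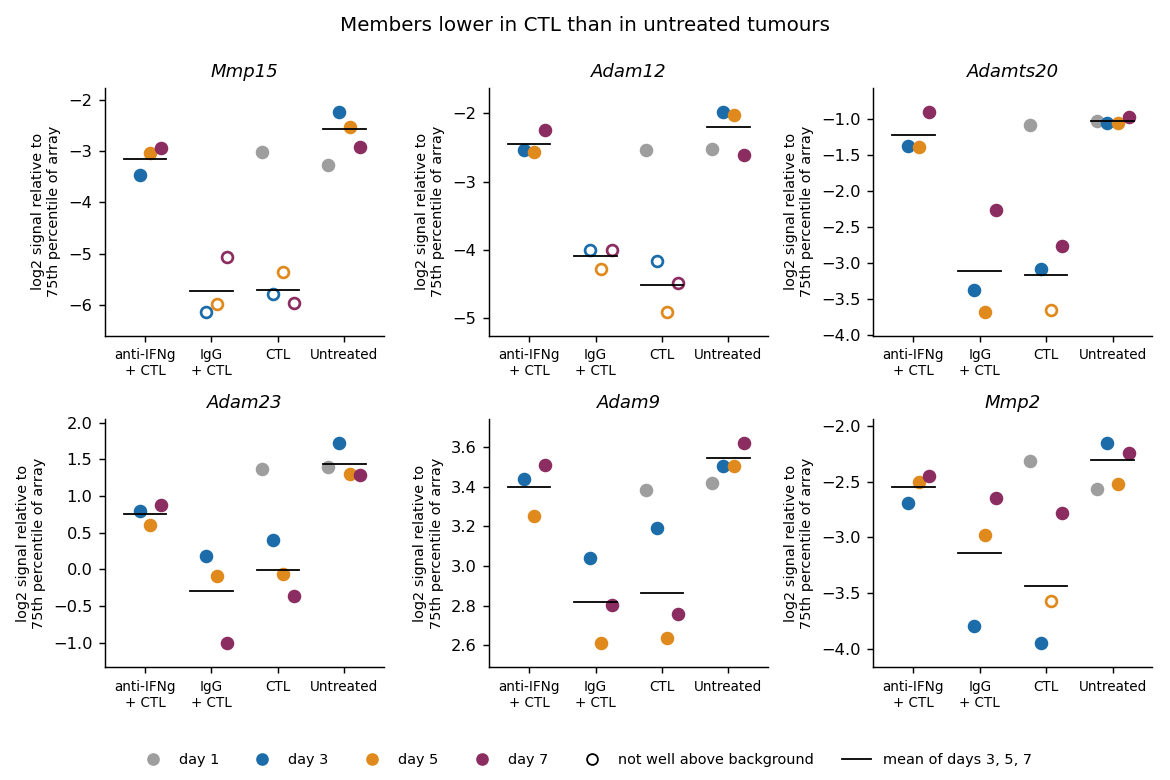
Log2 level of Mmp15, Adam12, Adamts20, Adam23, Adam9 and Mmp2 on each array (points, coloured by day), with anti-IFNg with CTL, IgG with CTL, CTL and untreated tumours from left to right; open points were not well above background and the lines are means of days 3, 5 and 7. In all 6 panels the CTL points of days 3 to 7 lie below the untreated points, while the CTL point of day 1 lies among or near them.

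Background correction with an added offset mattered for most of the genes that fell. Among these were Mmp17 and Adam11, whose probes were well above background on all 14 arrays. The normexp method was run with an offset of 50 units added to each signal. Such an offset narrows log2 differences of dim probes, and its part was not tested apart from that of the correction. With the normexp method in place of the scanner's own correction, under which the median of all genes was 0.08 in place of -0.10, the CTL minus untreated differences were -0.02 for Mmp15, -0.15 for Adam12 and -0.61 for Adamts20, none past the threshold, and those of Mmp2, Mmp17 and Adam11 turned to 0.19, 0.03 and 0.34. Only 5 of the 42 genes were called without day 5 and 8 without day 3.

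The 30 other tested genes did not pass. Adam17, which releases TNF and EGF receptor ligands, differed by -0.09 ± 0.11 between CTL and untreated tumours, with levels of 0.62, 0.52 and 0.91 against 0.78, 0.82 and 0.73 on days 3, 5 and 7 (limma, adjusted p = 0.528). Adam10, the sheddase of Notch receptors, differed by 0.21 ± 0.26 and was dim, well above background on 8 of 14 arrays (limma, adjusted p = 0.564). Mmp14 (MT1-MMP, which activates the precursor of MMP2) had 2.95, 3.26 and 2.97 in CTL tumours, against 3.06, 2.90 and 3.21 in untreated tumours, a difference of 0.01 ± 0.12 (limma, adjusted p = 0.973). Adam15 had 0.30 ± 0.10 and missed the threshold although the arms did not overlap (limma, adjusted p = 0.0534). Of the versican- and aggrecan-cutting enzymes, Adamts1 differed by -0.36 ± 0.16, Adamts4 by 0.50 ± 0.27, Adamts5 by -0.83 ± 0.29 and Adamts9 by -0.15 ± 0.40, and none passed (limma, adjusted p = 0.124, 0.188, 0.0587 and 0.788). Mmp11, stromelysin 3, and Adamts14, which trims procollagen, differed by -0.37 ± 0.23 and 0.22 ± 0.16 (limma, adjusted p = 0.253 and 0.308). The probes of Adamts10 and Adam19 did not move alike: those of Adamts10 differed by 0.47 (the one used), -0.41 and -1.10, and the 2 Adam19 probes that were detected on over 3 arrays by -0.32 (the one used) and -1.67.

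None of the 4 inhibitor genes passed in this comparison. Timp1, which inhibits most MMPs and is induced in inflamed tissue, had 2.22, 2.91, 3.15 and 2.70 in CTL tumours of days 1, 3, 5 and 7, against 2.18, 2.18, 2.28 and 2.71 in untreated tumours. The arms met on day 7, and the difference of 0.53 ± 0.19 did not pass (limma, adjusted p = 0.0606). Timp2, which inhibits MMP2 and also takes part in its activation by MMP14, had 4.60, 3.51, 4.02 and 4.60 in CTL tumours, against 4.59, 4.69, 4.22 and 4.53 in untreated tumours, with the low CTL value on day 3, and the difference was -0.44 ± 0.25 (limma, adjusted p = 0.213). Timp3, which binds to matrix and also inhibits ADAM17, had 1.74, 1.94 and 2.07 in CTL tumours of days 3, 5 and 7, against 2.29, 1.81 and 2.03 in untreated tumours. Timp3 thus differed by -0.13 ± 0.28, and Timp4 by -0.20 ± 0.15, with overlapping arms (limma, adjusted p = 0.753 and 0.338). The 4 probes lie on chromosome X at 20031508 to 20031566 (Timp1), chromosome 11 at 118117922 to 118117981 (Timp2), chromosome 10 at 85778750 to 85778809 (Timp3) and chromosome 6 at 115211721 to 115211780 (Timp4).

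**Figure D4:**
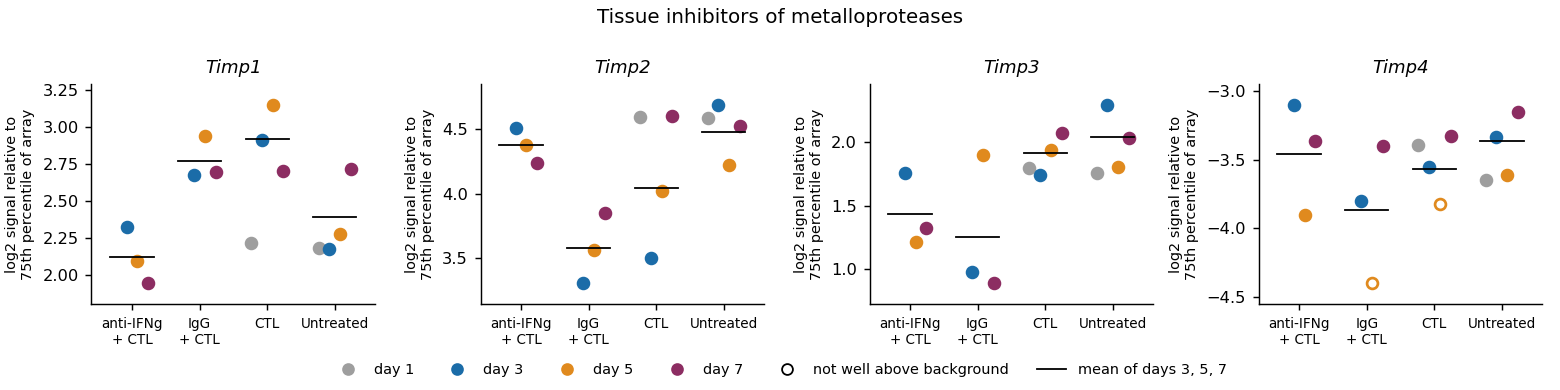
Log2 level of Timp1, Timp2, Timp3 and Timp4 on each array (points, coloured by day), with anti-IFNg with CTL, IgG with CTL, CTL and untreated tumours from left to right; open points were not well above background and the lines are means of days 3, 5 and 7. Timp1 means were 2.12 with anti-IFNg, 2.77 with IgG, 2.92 with CTL and 2.39 in untreated tumours, and Timp2 means 4.38, 3.58, 4.04 and 4.48.

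The second comparison asked which of these genes depended on interferon gamma in mice given CTLs, with anti-IFNg set against IgG. Mmp15, Adamts20, Adam12, Adam23 and Adam9 were higher with anti-IFNg, and Adam8 and Mmp13 were lower. Thus 7 of 42 genes passed (5 higher, 2 lower), or 16.7%, beside 12.6% of all genes (6.64% higher, 5.94% lower). Over the 42 genes the arms did not overlap in 11 genes that were higher and 5 that were lower with anti-IFNg, beside 21.3% and 14.9% of all genes. The arms compared here share no arrays with those of the CTL and untreated comparison. Both comparisons come from the same fit and share its estimate of spread and its day terms, so their calls are not independent. All 7 genes had passed there with the opposite sign, and all 12 genes called there had the opposite sign here; over the whole array this held for 97.6% of the 5363 genes called there, and 34.2% of them were called here in the opposite direction.

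The differences were 2.58 ± 0.32 for Mmp15 (limma, adjusted p = 0.00346), at least 1.92-fold, and 1.64 ± 0.21 for Adam12 (adjusted p = 0.00392), at least 3.03-fold. Adamts20 was higher by 1.89 ± 0.23, Adam23 by 1.06 ± 0.23 and Adam9 by 0.58 ± 0.13 (limma, adjusted p = 0.00329, 0.0219 and 0.0243). Adam8 fell by 1.53 ± 0.30, or 2.88-fold, and Mmp13 by 1.36 ± 0.32, or 2.56-fold (limma, adjusted p = 0.0166 and 0.03). Mmp8 was not well above background with anti-IFNg, at least 3.63-fold under its level with IgG, but its difference of -2.56 ± 0.71 did not pass (limma, adjusted p = 0.053). Mmp12 differed by -0.63 ± 0.54 with overlapping arms (limma, adjusted p = 0.46). Of the remaining called genes of the first comparison, Mmp2 had 0.60 ± 0.26, Mmp17 0.28 ± 0.14 and Adam11 0.21 ± 0.15, and none passed (limma, adjusted p = 0.169, 0.21 and 0.368).

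Timp1 had 2.32, 2.09 and 1.94 with anti-IFNg on days 3, 5 and 7, against 2.68, 2.94 and 2.70 with IgG. Its arms did not overlap, yet the difference of -0.65 ± 0.19 did not pass (limma, adjusted p = 0.0566). Timp2 had 4.51, 4.38 and 4.24 with anti-IFNg, against 3.31, 3.57 and 3.86 with IgG, a difference of 0.80 ± 0.25 that did not pass either (limma, adjusted p = 0.0752). Mmp14 and Adam17 were higher with anti-IFNg on each day by small amounts, 0.38 ± 0.12 and 0.33 ± 0.11, short of the threshold (limma, adjusted p = 0.0841 and 0.0801). Without day 3 the test called 3 genes, without day 5 none, without day 7 4, and in the fit of all 14 arrays none. With normexp 2 of the 7 passed, Adam23 and Adam8, and the differences of Mmp15, Adam12 and Adamts20 were 0.52, 0.62 and 1.05.

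A further comparison set CTL-treated mice given IgG against untreated mice, and shared its untreated arrays with the first. Here 14 of 42 genes passed (4 higher, 10 lower), or 33.3%, beside 18.7% of all genes (7.48% higher, 11.2% lower). The 4 genes that rose were Mmp8 by 3.46 ± 0.71 (at least 3.79-fold), Mmp13 by 2.48 ± 0.32, Mmp12 by 2.03 ± 0.54 (at least 2.72-fold) and Adam8 by 1.89 ± 0.30 (limma, adjusted p = 0.0129, 0.00167, 0.0341 and 0.00452). Mmp15 and Adam12, whose IgG arrays were not well above background, were at least 2.87-fold and at least 3.60-fold lower (limma, adjusted p = 0.000671 and 0.000993). Adamts20 differed by -2.08 ± 0.23, Adam23 by -1.74 ± 0.23, Adam9 by -0.73 ± 0.13 and Mmp17 by -0.57 ± 0.14, all past the threshold. Adamts5, an aggrecanase, had -3.33, -2.70 and -2.49 with IgG on days 3, 5 and 7, against -1.98, -0.98 and -1.92 in untreated tumours. Adamts1 had 1.70, 1.78 and 2.11 with IgG, against 2.60, 2.78 and 2.85 in untreated tumours, so the arms of both genes were apart. Timp2, Adamts1 and Adamts5 fell here by 0.90 ± 0.25, 0.88 ± 0.16 and 1.22 ± 0.29 (limma, adjusted p = 0.0399, 0.00813 and 0.0226). So did Adamts2, a procollagen N-proteinase named after its value was seen, by 1.05 ± 0.25 (limma, adjusted p = 0.025). None of these 4 genes was called between CTL alone and untreated tumours, where Adamts2 stood at -0.04 ± 0.25. For anti-IFNg minus untreated tumours Adamts2 had -0.97 ± 0.25, which was not called. Among 12 alternative settings the IgG calls held in 4 for Timp2, 4 for Adamts2, 5 for Adamts5 and 10 for Adamts1. Over the 42 genes the IgG and untreated arms did not overlap in 4 that were higher and 14 that were lower, beside 12.1% and 21.3% of all genes. The count of called genes was 5 without day 5 and 9 without day 3. With normexp it was 5 too, and those that no longer passed included Mmp15 (-0.82), Adam12 (-0.80), Mmp12 (0.68) and Mmp8 (1.04).

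With anti-IFNg, mice given CTLs were set against untreated mice, again with the same untreated arrays. None of the 42 genes passed (limma), beside 0.159% of all genes (0.153% higher, 0.00588% lower), and 6 had an unadjusted p under 0.05. The arms did not overlap in 2 genes that were higher and 7 that were lower, beside 5.25% and 6.17% of all genes. Mmp12 and Mmp13 lay above every untreated array of days 3 to 7, Mmp12 by at least 1.76-fold, since no untreated array was well above background, and Mmp13 by 1.13 ± 0.32 (limma, adjusted p = 0.65 and 0.485). For Mmp8 neither arm had an array well above background. Adam8 had 0.36 ± 0.30 and Mmp15 -0.58 ± 0.32 (limma, adjusted p = 0.931 and 0.81). Between IgG and CTL alone, a check of the control antibody, none of the 42 passed either (limma), beside 0.0118% of all genes, all of them lower, and 4 had an unadjusted p under 0.05. The arms did not overlap in 0 genes that were higher, beside 12.8% of all genes, and in 3 that were lower, beside 8.71%. These were Mmp14, Adam15 and Adamts2, with differences of -0.23 ± 0.12, -0.25 ± 0.10 and -1.01 ± 0.25 (limma, adjusted p = 0.338, 0.245 and 0.191).

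Day 1 had 1 CTL and 1 untreated array and gives no test. The 42 tested genes had a median difference of 0.02 and a range from -0.40 (Adam26a) to 1.31 (Mmp13), and 7 were over 0.5 in size. Of the 12 genes called from day 3 on, Mmp13 alone was over 0.5 in size on day 1, with its untreated array not well above background. The change of the CTL effect, days 3 to 7 minus day 1, passed for none of the 42 genes (limma, all 14 arrays), beside 1.01% of all genes (0.828% higher, 0.182% lower), while 11 had an unadjusted p under 0.05. Adamts20 came to -2.10 ± 0.47 (limma, adjusted p = 0.0971). The fitted changes of Adam12 (-2.31 ± 0.43) and Mmp15 (-3.39 ± 0.64) set levels against CTL arrays of days 3 to 7 that were not well above background, so their size was not measured (limma, adjusted p = 0.0535 and 0.058). Day 1 is a single pair of arrays, assumed to vary like the other days.

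Genes that activate metalloproteases, their substrates and neighbouring protease systems were described from lists chosen with earlier results of these data known. Of all genes, 10.1% were higher and 21.4% lower with CTLs, and 6.64% higher and 5.94% lower with anti-IFNg against IgG. With CTLs the counts for the genes of activators and matrix proteins were not far from these shares. Furin, Rhbdf1, Tnf, Hbegf, Tgfa, Fn1, Thbs1 and Dcn were named after their values were seen. The changes named passed the limma test, with the highest adjusted p at 0.0484 (Tspan33 with anti-IFNg). The median CTL minus untreated difference was 0.52 over cathepsin genes, 0.50 over genes of shed proteins and 0.25 over genes of matrix proteins. It was -0.36 over genes of activators, beside -0.10 over all genes. For anti-IFNg minus IgG these medians were -0.22, -0.52, -0.12 and 0.33, beside 0.06 over all genes. In CTL over untreated tumours, 2 of 12 tested activators and shedding regulators rose, Furin (0.64 ± 0.16), the convertase that activates membrane MMPs and ADAMs, and Rhbdf2 (0.97 ± 0.17), a partner of ADAM17, and 4 fell, among them Tspan15 (-0.93 ± 0.15), Tspan33 (-1.08 ± 0.20) and Tspan14 (-0.58 ± 0.13), tetraspanins that bind ADAM10, and Rhbdf1 (-0.64 ± 0.14). With anti-IFNg over IgG, 3 of these 12 rose, Tspan15 (1.13 ± 0.15), Tspan14 (0.71 ± 0.13) and Tspan33 (0.73 ± 0.20). Of 14 cathepsins, lysosomal proteases, 5 rose with CTLs and none fell, with Ctss at 3.96 ± 0.27, Ctsh at 2.00 ± 0.12 and Ctso at 1.61 ± 0.19, and the same 3 were lower with anti-IFNg (-1.62, -1.43 and -1.35). Of 6 genes of the plasminogen system 2 rose with CTLs, Plaur, the urokinase receptor (1.21 ± 0.17), and S100a10 (0.42 ± 0.11), and both fell with anti-IFNg (-1.09 and -0.47). Of 5 other protease inhibitors, Cst3 rose with CTLs (0.60 ± 0.14), and of 4 ADAMTS-like genes Adamtsl4 (0.69 ± 0.09) and Adamtsl3 (1.38 ± 0.41) rose.

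Among 19 tested genes of proteins that metalloproteases shed, 8 rose and 2 fell in RNA level with CTLs, beside 10.1% and 21.4% of all genes. Shedding itself was not measured. With anti-IFNg against IgG 7 of them fell, beside 5.94% of all genes. Cxcl16, a chemokine shed by ADAM10, rose by 3.95 ± 0.19 with CTLs and fell by 2.38 ± 0.19 with anti-IFNg. Tnf, the substrate after which ADAM17 was named, was at least 5.00-fold higher with CTLs than in untreated tumours and at least 4.17-fold lower with anti-IFNg than with IgG. The adhesion molecules Icam1 (2.84 ± 0.23) and Vcam1 (2.99 ± 0.25) and the receptor Csf1r (2.23 ± 0.21) also rose with CTLs. The EGF receptor ligands Hbegf (-0.72 ± 0.17) and Tgfa (at least 1.15-fold) fell. Among 21 tested genes of matrix proteins 3 rose with CTLs, Dcn (2.13 ± 0.58), Thbs1 (1.51 ± 0.36) and Fn1 (1.28 ± 0.22). Of the 21 genes 7 fell, among them those of the basement membrane collagens, Col4a1 (-1.31 ± 0.17) and Col4a2 (-1.20 ± 0.13), and of the proteoglycan Bcan (at least 2.67-fold). With anti-IFNg over IgG, 5 of the 21 were higher, among them Col4a1 (1.20 ± 0.17), Col4a2 (1.02 ± 0.13) and Lamc1 (0.64 ± 0.10), and Thbs1 was at least 3.20-fold lower.

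Markers of some other cell types also differed between the arms. Summed macrophage markers were 34.7 to 64.1 with anti-IFNg, 51.7 to 103 with IgG, 68.3 to 95.6 with CTLs and 21.0 to 23.3 in untreated tumours on days 3 to 7. In CTL over untreated tumours 6 of 7 macrophage and 6 of 6 T cell markers rose, and with anti-IFNg under IgG 4 of 7 and 3 of 6 fell. The macrophage sums moved in the direction of Mmp12, Mmp13, Mmp8 and Adam8, and their part in those results was not tested. Of 8 neutrophil markers 3 could be tested, and 1, Csf3r, rose with CTLs, at least 1.44-fold. With anti-IFNg 2 of the 3 were lower than with IgG (median difference -3.54), and with IgG 2 of the 3 were higher than in untreated tumours (median 3.21). The summed neutrophil level was 0.281 to 0.837 with anti-IFNg, 1.24 to 50.6 with IgG, 1.28 to 6.62 with CTLs and 0.256 to 1.86 in untreated tumours. With anti-IFNg 1 to 2 of the 8 neutrophil markers were well above background, with IgG 1 to 5, with CTLs 2 to 3 and in untreated tumours 1 to 4. In the CTL arm the neutrophil sum was highest on day 5 (6.62, against 1.28 on day 3 and 1.48 on day 7). Mmp8 was nearly as high on day 7 (-1.20) as on day 5 (-1.10), and lower on day 3 (-3.89). In the IgG arm the highest sum was on day 7 (50.6, against 2.38 on day 5), and Mmp8 was highest on day 5 (-1.44, against -2.22 on day 7). The part of these markers in the Mmp8 result was not tested.

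Of the 7 macrophage markers, 6 were well above background on each anti-IFNg and untreated array of days 3 to 7 and all 7 on each IgG and CTL array. Endothelial sums ran the other way, at 1.12 to 1.17 with anti-IFNg, 0.576 to 0.709 with IgG, 0.896 to 1.00 with CTLs and 1.46 to 2.46 in untreated tumours. With anti-IFNg 5 to 6 of 7 endothelial markers were well above background, with IgG 2 to 4, with CTLs 3 to 6 and in untreated tumours 5 to 6. Of 6 tested endothelial markers 3 fell with CTLs and 4 were higher with anti-IFNg than with IgG, as were Mmp15, Adam12, Adamts20, Adam23 and Adam9, and their part in those results was not tested. Of 5 fibroblast markers 1, Thy1, which T cells also express, rose and 1 fell with CTLs. The median difference of these 5 was -0.09 for CTL minus untreated. The fibroblast sum includes Thy1. It was 1.92 to 2.67 with anti-IFNg, 2.46 to 5.40 with IgG, 4.20 to 6.56 with CTLs and 2.73 to 3.93 in untreated tumours. The sum was thus higher with CTLs than in untreated tumours without overlap, while the IgG and untreated sums overlapped. Of 4 mast cell markers 1 to 2 were well above background on each array of days 3 to 7, so their sum rests on few genes. Of the 2 that could be tested 1, Kit, fell with CTLs and was higher with anti-IFNg than with IgG. The other passed in neither comparison, so the change rests on Kit alone and cannot be assigned to mast cells. The mast cell sum was 0.597 to 0.942 with anti-IFNg, 0.351 to 0.448 with IgG, 0.464 to 0.548 with CTLs and 0.825 to 1.06 in untreated tumours, lower with CTLs than in untreated tumours and higher with anti-IFNg than with IgG, as Mmp15 and Adam12 were. The part of fibroblast and mast cell markers in the results of the members was not tested. With CTLs alone 3 of 4 keratinocyte markers rose over untreated tumours, whereas with IgG 0 of 4 did (median difference -0.13). Keratinocyte sums were 0.924 to 1.43 with CTLs alone, 0.402 to 0.563 with IgG and 0.397 to 0.711 in untreated tumours. No skeletal muscle marker passed in either comparison.

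**Figure D5:**
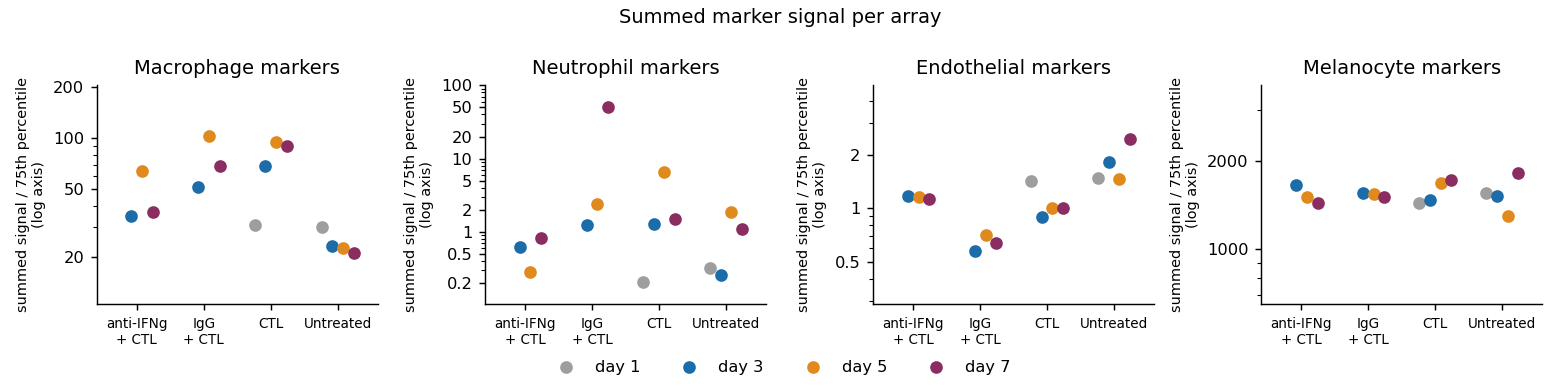
Summed signal of the macrophage, neutrophil, endothelial and melanocyte marker genes on each array, in multiples of the array's 75th percentile on a log axis, with anti-IFNg with CTL, IgG with CTL, CTL and untreated tumours from left to right and points coloured by day. Macrophage sums of CTL tumours from day 3 on lie at 68.3 to 95.6 and those of untreated tumours of the same days at 21.0 to 23.3.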

How the data were processed

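RNA of 3 or 4 pooled B16F10 tumours per array was hybridised to 14 one-colour Agilent arrays. Per the submitters' processing notes the authors read the scans with Agilent Feature Extraction 9.5 (version 9.5.3.1 per the file headers). The deposited scanner values are spot intensities, not logged, and the processed signal had been background-subtracted by the scanner software, per the file headers. The authors' deposited log2 table correlated with the log2 processed signal at r = 1 on each array and differed from it, after the percentile was subtracted, by a constant of 0.0329 to 0.0730 (column medians -3.54 to -3.14), which settled its scale, centring and direction.

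Here the log2 processed signal minus the array's 75th percentile (301 to 536 units) was used. Spots of 1 probe were averaged and outlier spots dropped. A value was missing for 29 probes, no chosen member among them. The probe with the highest mean stood for its gene. An accession in RefSeq named 24375 of 41174 probes, and 16799 kept the array's name. Members were taken by the array's name, and 1 of them, Adam6, is Adam6a by accession. Probe positions come from the array annotation (mm8); exon annotation of that build was not used here. RefSeq windows (GRCm38.p6) were matched by symbol.

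The test was limma 3.58.1 in R 4.3.3 (two-sided, Benjamini-Hochberg over 17021 genes, threshold 0.05), with arm and day as terms. Each day was 1 slide, and an arm kept its place on every slide, so that place and arm cannot be told apart. Over 18 same-day pairs of arrays, deviations from arm means correlated across genes at a median r of 0.133 (range -0.0476 to 0.514; 12 over 0.1). The labels do not say whether arrays came from separate experiments. The number of arrays limits the precision.

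Members, lists and the use of days 3 to 7 were chosen with earlier results of these data known. Named genes are those past the threshold in the first 2 comparisons, the 4 Timp genes, the 3 with the highest mean level in each family and others picked for their role, plus up to 4 genes of each list with the smallest p and those said to be named later. Data for the CTL and untreated comparison were simulated for 17020 genes, 100 of them changed by 1 and 100 by 2 on the log2 scale. Of those changed by 1, 62% were recovered, and of those changed by 2, 88%, and 7 unchanged genes were called. The share of changed genes was far below the 31.5% called in the data, so these rates do not carry over directly to the test as run. Alternatives covered normalisation, background correction, the authors' table, the filter on dim probes, probe choice, the day term, the arrays fitted and each day left out.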

Additional observations from a re-analysis of the deposited data

Results flagged for a closer look

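Of 56 sets of 4 arrays (28 named members in the CTL and the untreated arm), 4 held an array that stood far from the other 3, by Dixon's test at the 95% level. Chance alone marks about 1 in 20 such sets. All 4 were in the untreated arm. Mmp3 had its highest untreated level on day 7, at -1.89, with the next at -3.17. Adamts5 was highest on day 5, at -0.98, with the next at -1.92. Adamts9 was lowest on day 1, at -4.60, where it was not well above background, with the next at -3.54. Adamts14 was highest on day 7, at -0.85, with the next at -1.43.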

How the results depend on the processing

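Each comparison was refitted under 11 or 12 settings. In CTL against untreated tumours 12 genes were called (4 higher, 8 lower), 7 with normexp background correction (5 higher, 2 lower), 7 with only the 2 arms in the fit, and 5 to 12 with each day left out (8 without day 3, 5 without day 5, 12 without day 7). In anti-IFNg against IgG 7 were called, 2 with normexp, 4 with no filter on dim probes, 3 with only the 2 arms in the fit, 0 in the fit of all 14 arrays, and 0 to 4 with each day left out (3 without day 3, 0 without day 5, 4 without day 7). In IgG against untreated tumours 14 were called, 5 with normexp, 9 with no filter, 9 with only the 2 arms in the fit, and 5 to 11 with each day left out. The change of the CTL effect after day 1 had 0 calls, 1 with quantile normalisation, 2 with the filter that asks for every array of 1 arm, and 0 to 2 with each day left out. Fits without the replicate block (no day term) called 12, 8, 11 and 0 genes in these 4 comparisons, so the block changed no count by over 1.5 times. Both comparisons with 0 calls, anti-IFNg with CTL against untreated tumours and IgG against CTL, had 0 under every setting run. With normexp, Adam11 (0.34), Mmp17 (0.0318) and Mmp2 (0.19) reversed in CTL against untreated tumours; the cause was not tested. Settings chosen after seeing the data left out the CTL array of day 5, which had the lowest share of spots above background (11 called), and the IgG array of day 7, which had the highest neutrophil sum (6 called against anti-IFNg and 13 against untreated). Of 1675 values of single genes under alternatives, 1537 kept direction and side of the threshold, 117 lost the call, 18 gained one and 3 reversed. Signal near background limits the dim genes, above all Mmp8, Mmp12, Mmp15 and Adam12.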
